A study of Homo sapiens with 40 samples.

Results

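Transcript levels of 10 histone demethylase genes that act on lysine 9 of histone H3 (H3K9) were compared between control (CT) and SETDB1 knockout (KO) A549 cells. The genes were KDM3A, KDM3B and JMJD1C of the KDM3 family, KDM4A, KDM4B, KDM4C and KDM4D of the KDM4 family, KDM1A, and PHF8 and KDM7A. They were chosen by symbol, each matched exactly 1 of the 62486 gene IDs of the count table, and all 10 were among the 17767 genes that passed the filter on low counts. A549 is an established human lung adenocarcinoma line, and cells of both genotypes carry its K-RAS G12S allele. KO cells are A549 cells in which SETDB1 was disrupted with CRISPR/Cas9 from a plasmid carrying the guide, and no drug treatment or other allele separates the genotypes in the sample descriptions. RNA-seq gave 3 libraries per genotype, 6 of the 40 samples of the series. The descriptions do not say whether the KO cells are 1 clone or whether the libraries come from separate cultures, so p-values measure only the spread between these libraries, which may be technical.

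H3K9 methylation is placed by SETDB1, SUV39H1, SUV39H2, EHMT1 and EHMT2 and removed by demethylases of unlike chemistry. The KDM3, KDM4 and KDM7 groups carry a JmjC domain and need iron, oxygen and 2-oxoglutarate, so that oxygen supply and mitochondrial metabolites bear on their activity. KDM3 enzymes act on mono- and dimethylated H3K9, KDM4 enzymes on the trimethylated and dimethylated forms and most of them also on H3K36, and PHF8 and KDM7A on lower H3K9 states. KDM1A, also known as LSD1, is a flavin enzyme of the CoREST complex best known for demethylating H3K4, with activity on H3K9 reported beside nuclear receptors. KDM3A, KDM4B and KDM4C are known as genes induced in hypoxia. Enzyme activity and protein were not measured in the files used here.

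The libraries held 18065062 to 48364919 counts. SETDB1, whose transcript checks the labels, was at 38.6 ± 1.04 CPM (read counts scaled to a common TMM-adjusted library size; SD, n = 3) in CT and 21.9 ± 1.32 CPM (SD, n = 3) in KO, or -0.82 on the log2 scale (SE 0.060, adjusted p 1.7e-12 by edgeR). The table counts whole genes and does not show the edited exon. Over all tested genes, 32.8% were higher and 30.0% lower in KO at an adjusted p under 0.05. All 6 lung epithelial markers examined were detected and higher in KO (5 under upper quartile scaling), KRT7 by only 0.10 on the log2 scale. Their summed level was 4460 to 4883 CPM in CT and 10821 to 11625 CPM in KO. KRT8 was at 2271 ± 139 and 6594 ± 261 CPM, and KRT19 at 74.0 ± 4.83 and 416 ± 20.2 CPM (SD, n = 3 each). Of 8 alveolar type II markers, 2 (NAPSA and ABCA3) were tested and both were higher in KO. The others had too few counts for the test and did not share a direction. SFTPB was at 0.41 ± 0.23 CPM in CT and 0.23 ± 0.072 CPM in KO, and SFTPA2 at 0.037 ± 0.064 and 0.014 ± 0.023 CPM. LAMP3 was at 0.20 ± 0.093 and 0.38 ± 0.16 CPM, and NKX2-1 at 0 and 0.058 ± 0.027 CPM (SD, n = 3 each). SFTPA1, a surfactant protein gene, had no count in any library. A level too low to be seen at these depths remains possible. SFTPC was at 0.081 ± 0.024 CPM in CT and 0.12 ± 0.054 CPM in KO (SD, n = 3 each). Blood cell markers summed to 5.56 to 5.85 CPM in CT and 4.02 to 5.35 CPM in KO, nearly all of it CD14, and CD3E was at 0. Of 4 endothelial markers, PECAM1 was not matched, and CDH5 rose from 0.29 ± 0.083 to 4.53 ± 0.67 CPM (SD, n = 3 each). VWF and KDR had too few counts for the test. VWF was at 0.028 ± 0.049 CPM in CT and 0.028 ± 0.024 CPM in KO. KDR was at 0.011 ± 0.020 CPM in CT and 0.14 ± 0.030 CPM in KO (SD, n = 3 each). Fibroblast markers summed to 4.74 to 4.86 CPM in CT and 4.89 to 5.21 CPM in KO, with COL1A2 and DCN at 0. Within that sum PDGFRA fell from 1.30 ± 0.12 to 0.13 ± 0.038 CPM, while COL3A1 rose from 0.32 ± 0.038 to 0.87 ± 0.34 CPM and COL1A1 from 3.10 ± 0.076 to 3.83 ± 0.27 CPM (SD, n = 3 each), and 1 of these 2 rises was called under upper quartile scaling. Whether the shift in these markers has a part in the results on demethylase genes was not tested. In bulk RNA, a change in the make-up of the cells and a change in RNA per cell cannot be told apart.

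Of the 10 demethylase genes, 4 rose in KO (KDM4B, KDM4D, KDM7A and JMJD1C), 2 fell (KDM3A and KDM1A) and 4 did not pass the test (KDM3B, KDM4A, KDM4C and PHF8), by edgeR's quasi-likelihood test with a Benjamini-Hochberg adjusted p under 0.05 over all genes. Over all tested genes, 32.8% were higher and 30.0% were lower by the same rule, so these counts lie near the background. The genotypes did not overlap for 7 of the 10 genes, 5 higher and 2 lower in KO, against 65.8% of all tested genes. The median log2 fold change of the 10 genes was 0.085, and that of all tested genes was 0.0038. No gene of the 10 changed by 2-fold or more. The change of KDM4B was larger in size than that of 84.2% of tested genes, while those of KDM3A and KDM1A were larger than 51.8% and 47.4%, near the middle of the table. The 6 called genes kept their call in 14 of 14 alternative analyses each.

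**Figure D1:**
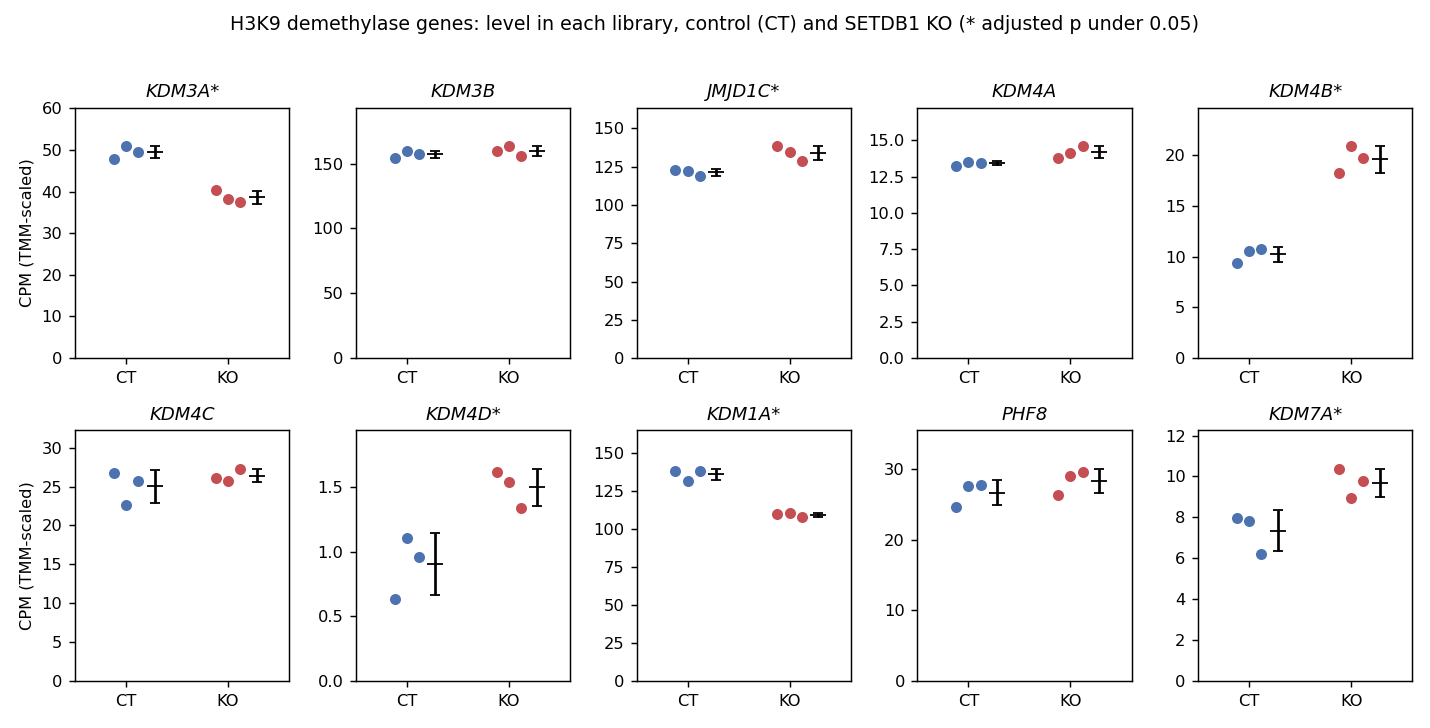
Level of each of the 10 demethylase genes in each library, in CPM of TMM-scaled library size, with each vertical axis starting at 0. Points are the 3 CT (blue) and 3 KO (red) libraries, black bars are the mean and SD, and an asterisk marks an adjusted p under 0.05. KDM4B, with the highest ratio of the 10 (1.93), goes from 9.34 to 10.8 CPM in CT to 18.2 to 20.9 CPM in KO.

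The KDM3 family split in direction. KDM3A (ENSG00000115548, chromosome 2), which removes mono- and dimethylation from H3K9, was at 47.9, 51.0 and 49.6 CPM in the CT libraries and 40.4, 38.2 and 37.4 CPM in the KO libraries. All KO libraries lay below all CT libraries. KDM3A fell to 78.1% of the CT level, or -0.36 on the log2 scale (SE 0.053, adjusted p 1.32e-06 by edgeR). JMJD1C (ENSG00000171988, chromosome 10), a large KDM3 paralog whose own demethylase activity is debated, was at 123, 122 and 119 CPM in CT and 138, 135 and 129 CPM in KO. Its groups did not overlap, and its rise was small, to 110.6% of CT, or 0.15 on the log2 scale (SE 0.043, adjusted p 0.00499 by edgeR). REEP3, a protein-coding gene whose RefSeq span overlaps that of JMJD1C, went from 111 to 122 CPM. As the strand setting of the counting is not given, reads from a stretch that such a pair shares cannot be assigned with certainty.

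KDM3B (ENSG00000120733, chromosome 5), the third KDM3 enzyme, was at 155, 160 and 157 CPM in CT and 160, 164 and 156 CPM in KO. The ranges overlapped. Its log2 fold change was 0.025 (edgeR adjusted p 0.618), with a 95% interval from 95.9% to 108.0% of the CT level. This is the narrowest of the intervals around the 4 genes that were not called, and it rests on 2897 to 8069 counts per library.

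As a share of the family's own counts, which needs no scaling between libraries, KDM3A made up 15.1 ± 0.31% in CT and 11.6 ± 0.28% in KO (SD, n = 3 each). JMJD1C took 37.0 ± 0.70% and 40.3 ± 0.47%, and KDM3B 47.95 ± 0.41% and 48.1 ± 0.74% (SD, n = 3 each). The shares of KDM3A and JMJD1C did not overlap between genotypes, and those of KDM3B did. An exact two-sided permutation test gave p = 0.10 for KDM3A and for JMJD1C, the smallest that 3 libraries against 3 allow, and p = 0.70 for KDM3B (adjusted over the 3 shares 0.15, 0.15 and 0.70). The summed level of the 3 genes was 328 ± 4.45 CPM in CT and 333 ± 8.92 CPM in KO (SD, n = 3 each), so the rise of one member and the fall of another came with nearly the same total. Shares and sums count reads, and longer transcripts give more of them. The shares of a family add up to the whole, so a change in one moves the others.

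The KDM4 family, the demethylases that act on trimethylated H3K9, held the largest rise of the 10 genes. KDM4B (ENSG00000127663, chromosome 19), also an H3K36 demethylase and a cofactor of steroid receptors, was at 9.34, 10.6 and 10.8 CPM in CT and 18.2, 20.9 and 19.7 CPM in KO. Its lowest KO library stood well above its highest CT library. KDM4B rose 1.93-fold, or 0.95 on the log2 scale (SE 0.079, adjusted p 3.16e-11 by edgeR), on 192 to 313 counts per CT library and 418 to 1030 per KO library.

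KDM4D (ENSG00000186280, chromosome 11), a short KDM4 paralog that lacks the reader domains of the others, was at 0.64, 1.10 and 0.96 CPM in CT and 1.62, 1.54 and 1.34 CPM in KO. All KO libraries were above all CT libraries, on only 15, 20 and 28 counts in CT and 37, 76 and 30 counts in KO. Its log2 fold change was 0.76 (edgeR adjusted p 0.00434), with an interval from 0.30 to 1.21, the widest of the 10 genes. Its adjusted p ranged from 0.00264 to 0.041 over the 14 alternatives, among them leaving out each library. KDM4E, its close paralog, had 1 count in all 6 libraries together.

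KDM4A and KDM4C, both demethylases of H3K9 and H3K36 with paired Tudor and PHD reader domains, did not pass the test. KDM4A (ENSG00000066135, chromosome 1) was at 13.3, 13.5 and 13.4 CPM in CT and 13.8, 14.1 and 14.6 CPM in KO. The KO libraries all lay above the CT libraries with a log2 fold change of 0.081 (SE 0.073, adjusted p 0.349 by edgeR) and an interval from 95.3% to 117% of CT. KDM4C (ENSG00000107077, chromosome 9), a gene amplified in some carcinomas, was at 26.8, 22.7 and 25.7 CPM in CT and 26.1, 25.7 and 27.3 CPM in KO. Its ranges overlapped, and its log2 fold change was 0.064 (SE 0.065, adjusted p 0.401 by edgeR) with an interval from 95.4% to 115% of CT. KDM4A-AS1, a noncoding gene whose RefSeq span overlaps KDM4A, went from 3.86 to 2.82 CPM. Without the strand setting, reads from the stretch it shares with KDM4A cannot be assigned with certainty.

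Within the family's own counts, KDM4B went from 20.6 ± 1.76% in CT to 31.8 ± 1.58% in KO (SD, n = 3 each). Its share was 18.7, 22.1 and 21.1% in the CT libraries and 30.5, 33.6 and 31.3% in the KO libraries, so the genotypes were apart by more than the spread within either. KDM4C went from 50.5 ± 3.09% to 42.8 ± 1.31%, and KDM4D from 1.82 ± 0.52% to 2.43 ± 0.29% (SD, n = 3 each). KDM4A was at 26.5, 28.2 and 26.4% in the CT libraries and 23.1, 22.7 and 23.2% in the KO libraries. KDM4D's shares overlapped and the others' did not. The exact two-sided permutation p was 0.10 for KDM4A, KDM4B and KDM4C, the smallest possible, and 0.20 for KDM4D (adjusted over the 4 shares 0.133, 0.133, 0.133 and 0.20). Shares add up to the whole family, so a larger KDM4B share lowers the others, and these tests are not separate results. The levels of KDM4A and KDM4C had log2 fold changes of 0.081 and 0.064, and neither passed the test. The summed level of the 4 genes was 49.6 ± 1.52 CPM in CT and 61.7 ± 1.66 CPM in KO (SD, n = 3 each), 1.24-fold higher in KO.

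**Figure D2:**
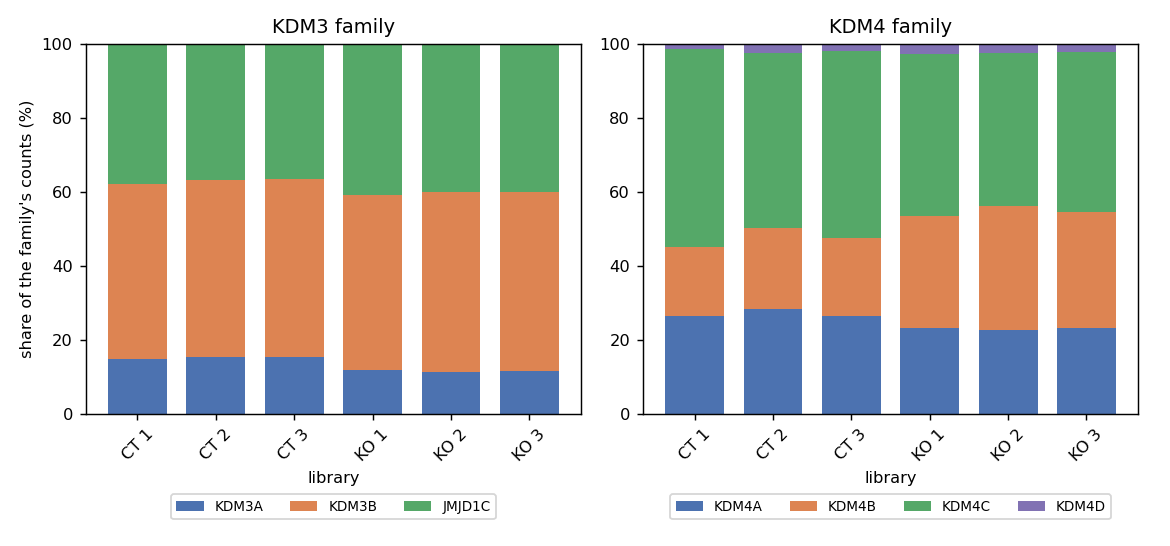
Share of each gene in the counts of the KDM3 family (left) and of the KDM4 family (right), in percent, one bar per library. KDM4B (orange, right) occupies 18.7 to 22.1% of the bars of CT libraries and 30.5 to 33.6% of those of KO libraries, and KDM3A (blue, left) 14.7 to 15.3% and 11.4 to 11.9%.

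Since only some of the 4 KDM4 paralogs were called, the 250 bases before their start sites are shown for comparison, from RefSeq on GRCh38.p14, 5′ to 3′ on the gene's strand. Capitals mark ACGTG and GCGTG on either strand, the core letters of the hypoxia response element.

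KDM4A promoter, chr1:43649899-43650148, plus strand: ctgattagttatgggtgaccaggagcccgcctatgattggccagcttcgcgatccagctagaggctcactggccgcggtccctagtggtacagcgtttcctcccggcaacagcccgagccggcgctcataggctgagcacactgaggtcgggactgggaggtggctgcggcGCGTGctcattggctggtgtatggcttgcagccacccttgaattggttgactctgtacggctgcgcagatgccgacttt
KDM4B promoter, chr19:4968863-4969112, plus strand: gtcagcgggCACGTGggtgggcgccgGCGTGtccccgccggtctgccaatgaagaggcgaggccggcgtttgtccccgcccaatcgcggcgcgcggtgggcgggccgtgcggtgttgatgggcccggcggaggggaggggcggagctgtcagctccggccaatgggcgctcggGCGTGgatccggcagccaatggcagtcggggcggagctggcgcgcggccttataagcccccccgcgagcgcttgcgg
KDM4C promoter, chr9:6757723-6757972, plus strand: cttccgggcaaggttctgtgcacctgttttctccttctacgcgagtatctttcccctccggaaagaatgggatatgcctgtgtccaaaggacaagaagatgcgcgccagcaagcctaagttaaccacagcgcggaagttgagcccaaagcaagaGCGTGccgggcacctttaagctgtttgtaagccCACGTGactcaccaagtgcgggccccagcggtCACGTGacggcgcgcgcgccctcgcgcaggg
KDM4D promoter, chr11:94973459-94973708, plus strand: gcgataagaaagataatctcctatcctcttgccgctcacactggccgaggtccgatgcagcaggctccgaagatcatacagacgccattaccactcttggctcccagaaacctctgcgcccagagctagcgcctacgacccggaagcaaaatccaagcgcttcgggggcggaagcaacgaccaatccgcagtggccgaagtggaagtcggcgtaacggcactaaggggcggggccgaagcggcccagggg

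The KDM4B sequence held GCGTG at 2 places, 224 and 77 bases before the start, and CACGTG, which reads as ACGTG on both strands, with matches beginning 241 and 240 bases before it. The KDM4C sequence held CACGTG at 2 places and GCGTG once, the KDM4A sequence GCGTG once, and the KDM4D sequence neither. Of 35116 promoter entries of the same length, 18.5% held ACGTG and 32.2% held GCGTG on either strand. Across the 10 demethylase genes, all with a RefSeq entry and together with 15 start sites, 5 start sites held ACGTG and 6 held GCGTG. By gene these were 5 and 5, as the sequences of the 2 KDM3A start sites overlap and share the same GCGTG. KDM4B and KDM4D were called higher and KDM4A and KDM4C were not called. Whether these letters have a part in the changes was not tested. These letter matches are descriptions of the sequence and do not show binding.

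KDM1A fell. KDM1A (ENSG00000004487, chromosome 1), the catalytic subunit of the CoREST corepressor complex, was at 138, 131 and 138 CPM in CT and 110, 110 and 108 CPM in KO. The KO libraries lay together below every CT library, and the level was 80.4% of CT, or -0.32 on the log2 scale (SE 0.043, adjusted p 3.05e-07 by edgeR). LUZP1, whose RefSeq span overlaps that of KDM1A, went from 62.3 to 52.7 CPM, with the same limit on reads from the stretch the pair shares.

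The KDM7 group was divided. KDM7A (ENSG00000006459, chromosome 7), a demethylase of dimethylated H3K9 and H3K27, was at 7.99, 7.84 and 6.18 CPM in CT and 10.3, 8.95 and 9.76 CPM in KO. All KO libraries were higher than all CT libraries, and the log2 fold change was 0.40 (SE 0.10, adjusted p 0.00118 by edgeR), a 1.32-fold rise. PHF8 (ENSG00000172943, chromosome X), a demethylase of H3K9 and H4K20 that binds H3K4me3 through its PHD finger, was at 24.6, 27.6 and 27.8 CPM in CT and 26.3, 29.0 and 29.6 CPM in KO. Its ranges overlapped, and its log2 fold change of 0.090 (SE 0.064, adjusted p 0.228 by edgeR) had an interval from 97.2% to 117% of CT.

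Because fold changes in these libraries are uneven over chromosomes, each gene was set beside the 25 tested genes on either side in RefSeq order. KDM3A lay in the middle of its surroundings. The median log2 fold change was -0.54 over the other 1045 tested genes of chromosome 2 and -0.22 over the 50 neighbours of KDM3A, of which 22 were lower and 28 higher than KDM3A itself, whose log2 fold change was -0.36. With 10 neighbours on each side that median was -0.55, and with 50 it was -0.39, so KDM3A's -0.36 was within the range of these windows. Whether a shift of chromosome 2 as a whole has a part in the fall of KDM3A was not tested.

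KDM4B stood above its neighbours. Their median was 0.14, against 0.34 over chromosome 19, and 47 of 50 were lower than KDM4B. With 10 or 50 neighbours on each side the median was 0.048 or 0.23, below KDM4B's 0.95 in either case. KDM4D exceeded 41 of 50 neighbours (median -0.065), KDM7A 36 of 50 (median 0.058) and JMJD1C 35 of 50 (median -0.13). KDM1A was lower than 41 of its 50 neighbours, whose median was 0.074 and, with 10 on each side, -0.025. The 4 genes that were not called lay near the middle, with 26 to 29 of 50 neighbours below them.

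**Figure D3:**
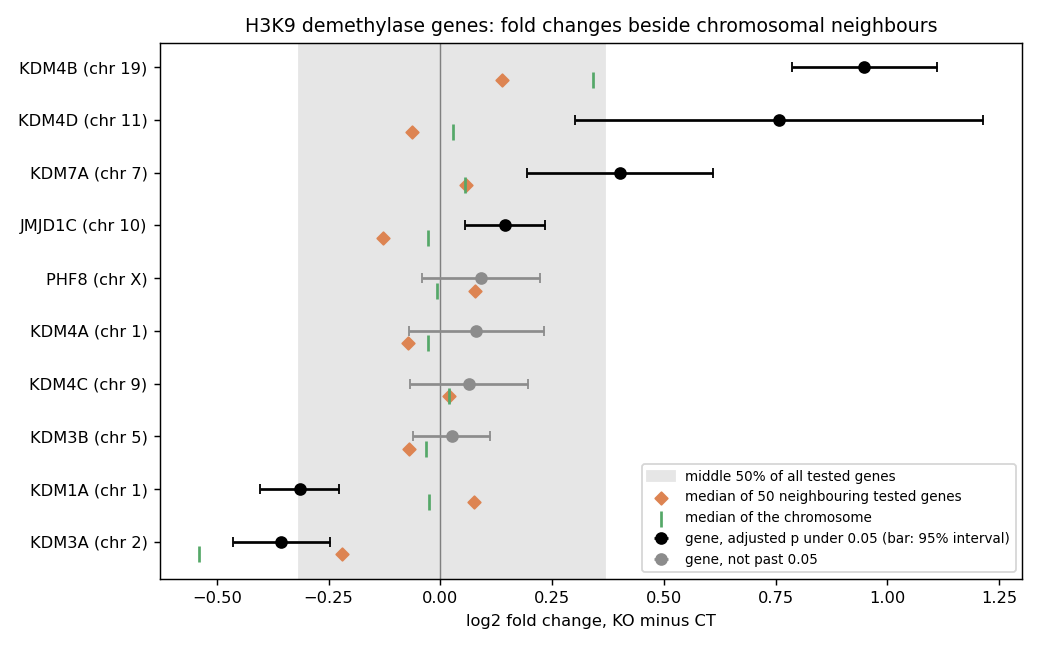
Log2 fold change (KO minus CT) of the 10 genes with 95% intervals, black where the adjusted p was under 0.05 and grey otherwise. Orange diamonds are medians of 50 neighbouring tested genes, green ticks are medians of the gene's chromosome, and the grey band spans the middle 50% of all tested genes (-0.32 to 0.37). KDM3A sits between the medians of its neighbours (-0.22) and its chromosome (-0.54), while KDM4B sits to the right of both of its own.

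Other genes of the pathway were examined in lists, whose counts stand beside 32.8% higher and 30.0% lower, and medians beside 0.0038, over all tested genes. Of 11 listed JmjC or LSD family genes that act on other sites, 9 rose (7 under upper quartile scaling) and 2 fell, with a median log2 fold change of 0.21. Among them were KDM6B, an H3K27 demethylase, from 4.82 ± 0.96 to 6.76 ± 0.91 CPM, KDM8 from 3.53 ± 0.10 to 4.86 ± 0.34 CPM, and KDM5B, an H3K4 demethylase, from 61.7 ± 2.87 to 82.2 ± 1.32 CPM (SD, n = 3 each). The list is not complete, and KDM5D, an H3K4 demethylase outside it, rose from 30.0 ± 0.35 to 73.7 ± 1.65 CPM (SD, n = 3 each), more than any gene of the list. Of 4 further genes linked to H3K9 demethylation, 3 were tested: HR, a KDM3-related gene, rose (log2 fold change 0.41), RIOX2 fell (-0.22), and PHF2 did not pass the test (0.029). The median of these 3 was 0.029, and -0.0058 under upper quartile scaling.

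Enzymes on the opposing side, the H3K9 methyltransferases, showed 2 genes higher and 4 lower of 7 tested (3 lower under library size scaling), beside 32.8% higher and 30.0% lower over all tested genes. The 4 include SETDB1, the targeted gene. SUV39H1 and SUV39H2, which trimethylate H3K9 in pericentromeric heterochromatin, fell by 0.30 and 0.39 on the log2 scale (edgeR adjusted p 0.000613 and 3.03e-06). EHMT2 fell by 0.20 and its partner EHMT1 rose by 0.22, and SETDB2 was at 0.071 (edgeR adjusted p 0.021, 0.000988 and 0.497). MECOM, a transcription factor with a PR domain, had 0, 0 and 1 counts in CT and 321, 651 and 311 counts in KO, or 13.7 ± 0.43 CPM (SD, n = 3).

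Partners of KDM1A were mostly not called. Of 13 tested, 2 rose, 4 fell and 7 did not pass the test, with a median log2 fold change of -0.034, and under upper quartile scaling 1 rose. HDAC2, a deacetylase of the CoREST complex, went from 96.6 ± 3.71 to 78.3 ± 1.30 CPM, and RCOR2, a CoREST scaffold, from 1.73 ± 0.073 to 0.75 ± 0.036 CPM. HMG20B, a DNA-binding subunit, rose from 32.6 ± 3.25 to 42.4 ± 2.79 CPM (SD, n = 3 each). RCOR1, the main scaffold, rose by 0.14 and HDAC1 fell by 0.21 on the log2 scale. HDAC1, HDAC2, RCOR2, ZMYM2 and KDM1A fell, while RCOR1 and HMG20B rose.

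Genes for cofactor supply were examined next. Of 16 genes that make or use 2-oxoglutarate or the metabolites that compete with it, 9 fell, 3 rose and 4 did not pass the test, with a median of -0.19. IDH1, which makes 2-oxoglutarate from isocitrate, went from 242 ± 10.7 to 173 ± 2.99 CPM, and SDHD, a subunit of succinate dehydrogenase, from 40.7 ± 4.21 to 27.4 ± 0.66 CPM (SD, n = 3 each). IDH1 lies on chromosome 2, with its median of -0.54. Of 5 genes of riboflavin uptake and FAD synthesis, which supply the KDM1A cofactor, 2 rose, 1 fell and 2 did not pass the test (median -0.065), while 2 fell under upper quartile scaling. The riboflavin transporter SLC52A3 rose from 0.55 ± 0.19 to 13.9 ± 0.57 CPM and SLC52A1 from 2.07 ± 0.36 to 4.10 ± 0.20 CPM, and the riboflavin kinase RFK fell from 119 ± 7.59 to 104 ± 1.03 CPM (SD, n = 3 each).

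Because KDM3A, KDM4B and KDM4C are known hypoxia genes, oxygen sensing genes and hypoxia-induced targets were also listed. The transcripts of the 2 factors that carry the response did not pass the test. HIF1A was at 513 ± 27.3 CPM in CT and 516 ± 21.9 CPM in KO, and EPAS1 at 141 ± 1.03 and 134 ± 3.37 CPM (SD, n = 3 each; edgeR adjusted p 0.909 and 0.16). Of 8 oxygen sensing genes, 2 rose and 6 did not pass the test, with a median of 0.012 (-0.023 under upper quartile scaling, with 1 higher and 1 lower). EGLN1, the main oxygen-sensing prolyl hydroxylase, rose from 16.0 ± 2.45 to 38.8 ± 6.39 CPM (SD, n = 3 each). ARNT, the dimer partner, had a log2 fold change of 0.14 (edgeR adjusted p 0.0323).

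Of 20 hypoxia-induced targets, a list that leaves out the demethylases, 14 fell (13 under library size scaling), 3 rose and 3 did not pass the test, with a median log2 fold change of -0.30. Over all tested genes, 30.0% were lower and 32.8% higher. PFKFB3, a glycolytic regulator, went from 427 ± 19.1 to 163 ± 11.1 CPM, ADM from 57.5 ± 5.63 to 27.6 ± 0.68 CPM, and ANGPTL4 from 10.7 ± 0.73 to 5.30 ± 0.61 CPM (SD, n = 3 each). The 3 that rose were CA9, ALDOA and P4HA1. CA9, a carbonic anhydrase, went from 0.41 ± 0.086 to 1.02 ± 0.14 CPM (SD, n = 3 each). ALDOA, a glycolytic aldolase, went from 4.63 ± 0.35 to 6.99 ± 1.33 CPM (SD, n = 3 each). ALDOA rested on 91 to 128 counts per CT library, and whether its gene ID holds all reads of the gene is not known. P4HA1, a collagen prolyl hydroxylase, rose by 0.18 on the log2 scale. The hypoxia-linked demethylases themselves went in different directions beside this list: KDM3A fell, KDM4B rose and KDM4C did not pass the test.

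**Figure D4:**
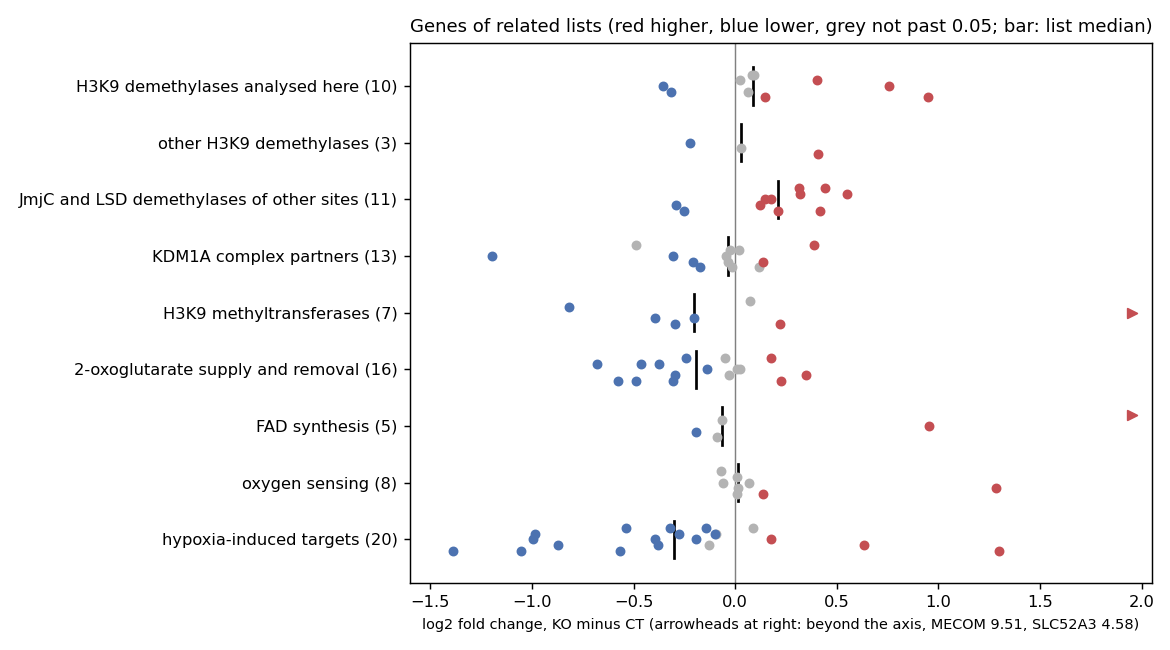
Log2 fold change (KO minus CT) of the genes of each list, one point per tested gene with the number tested in brackets. Red points were higher and blue points lower at an adjusted p under 0.05, grey points did not pass, black bars are list medians, and arrowheads at the right edge are MECOM (9.51) and SLC52A3 (4.58), beyond the axis. The median of hypoxia-induced targets is at -0.30 and that of the JmjC and LSD family genes that act on other sites at 0.21. The 10 H3K9 demethylases have points on both sides of 0.

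Genes with the most similar profile over the 6 libraries were sought for the largest rise and the largest fall among the 10, by the root-mean-square difference of log2 CPM after centring each gene on its mean, over 10993 candidates. For KDM4B these were MISP (0.029), PPP2R5B (0.033) and RHBDF1 (0.035), and for KDM3A they were TDP1 (0.017), FAH (0.020) and TGS1 (0.025). MISP went from 163 to 315 CPM and TDP1 from 26.2 to 20.8 CPM. These genes were chosen for their likeness, so their similar fold changes are part of the choice.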

How the data were processed

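Raw counts per gene were deposited by the authors for 6 RNA-seq libraries, 3 per genotype, made with a stranded total RNA kit per the labels' protocols. The submitters' processing notes name STAR 2.6.1c, edgeR 3.30.0 and the build hg19, without roles. Neither the counting tool nor its setting for strand is given in the sources used here. Of 62486 gene IDs, 58599 (93.8%) matched the name table.

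Fold changes came from edgeR 4.0.16 under R 4.3.3. After filterByExpr and TMM scaling, a robust quasi-likelihood model with a term for genotype alone was tested per gene, and p-values were adjusted by Benjamini-Hochberg over 17767 genes, with a threshold of 0.05. SE is the fold change divided by the root of the F statistic, and intervals are 95%. The fit was also run on simulated counts with a fixed spread and few changed genes. As many genes were called here, that run does not measure the error rate in these data. The genes and lists were chosen with earlier results of these data known. All 10 demethylase genes are named, and of each other list up to 3 genes with the largest change among those called with a mean CPM of at least 1, with HIF1A, EPAS1 and the methyltransferases. One gene that this rule selects is not reported here. PHF2, KDM5D, RCOR1, HDAC1, ZMYM2, P4HA1, CA9, ALDOA, marker genes and genes that overlap a demethylase were added after their values were seen. Likeness used a mean CPM of at least 5 and a prior count of 2. Chromosome order came from RefSeq on GRCh38.p14 and covered 87.9% of tested genes. Family shares were compared by exact permutation tests. Alternatives were RLE, upper quartile and library size scaling, 2 filters, DESeq2 1.42.0, limma 3.58.1 voom, a replicate block and leaving out each library. No column of sample values went unmapped (0 columns). Levels were not ranked between genes, as the table holds no transcript lengths. The peak lists, domains and compartment signal were not used here, since linking them to genes needs an annotation of hg19.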

Additional observations from a re-analysis of the deposited data

How the results depend on the processing

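Of 140 member fold changes under alternatives, 139 kept direction and side of the threshold, and KDM3B went to -0.010 under upper quartile scaling, past no threshold in any alternative (adjusted p 0.275 to 0.899). The numbers of genes called, 4 higher and 2 lower, were the same in all 14 alternatives. Leaving out each library gave log2 fold changes of 0.89 to 1.00 for KDM4B, 0.57 to 0.88 for KDM4D, 0.27 to 0.48 for KDM7A, 0.13 to 0.17 for JMJD1C, -0.38 to -0.33 for KDM3A and -0.34 to -0.30 for KDM1A. The KO minus CT difference in the KDM3B share of KDM3 counts, 0.14 points, ranged from -0.14 without KO replicate 2 to 0.56 when single libraries were left out, and was -0.080 without CT replicate 1 and -0.0043 without KO replicate 3. Deviations of same-numbered libraries correlated weakly (0.11, 0.064 and 0.047). Differently numbered libraries were not set beside them, so whether the libraries are paired stays undecided. With the replicate block the SE was lower for every demethylase gene except KDM4D. The calls were 4 higher and 2 lower, and the KDM4B share differed by 11.1 points. Of 78 list values under other scalings, 11 moved, which for a count means by more than 1.5 times or to or from 0, and for a median by more than its SD between libraries or to the other sign. Smaller shifts in counts stand beside the lists. Of 20 neighbour medians under other window sizes, 15 moved by more than that SD, with a change of sign for KDM1A, KDM4C and PHF8; the causes were not tested. Depth limits KDM4D most, with 15 to 28 counts per CT library.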
